A study of Mus musculus with 2 samples.

Results

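The 8 genes described here build or assemble the muscle side of the nerve-muscle contact, or fuse muscle cells. They are the acetylcholine receptor subunit genes Chrna1, Chrnb1, Chrng, Chrnd and Chrne, the receptor kinase gene Musk, and the fusion genes Mymk and Mymx. The choice of cytosines within these genes used no methylation value, but the genes were chosen with earlier results of these data known. CpG cytosines were counted in the gene body and within 1 kb of the gene start, where both libraries had 5 or more reads, outside the recognition sites of the enzymes used. This gave 223 cytosines of 121 CpGs in 8 of 55413 annotated genes, out of 1850635 such cytosines in the genome.

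Mouse C3H myoblasts, a muscle precursor line, were differentiated into myotubes and transfected with a control siRNA (siCon) or an siRNA against the imprinted long non-coding RNA H19 (siH19), and DNA was taken 48 h later. Both groups were myotubes of the same line and differed in the siRNA as far as the labels say. Methylation was read by reduced representation bisulfite sequencing, which sequences bisulfite-treated ends of MspI (CCGG) and TaqαI (TCGA) fragments, and the study asked whether lowering H19 changes DNA methylation across the genome. With 1 library per group there was no replicate, so every test below compares those 2 libraries and not the siRNAs, and intervals (Wilson, 95%) cover counting error only.

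The siCon library held 104999613 reads over CpG cytosines and the siH19 library 106372792. The cytosines used had a median depth of 24 reads in each. Their mean level was 33.1% in siCon and 33.3% in siH19. RNA, including H19 itself and the muscle markers that would check the cells' identity, was not measured in these libraries.

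The muscle acetylcholine receptor is a ligand-gated channel of 5 subunits. It contains the α1 (Chrna1), β1 (Chrnb1) and δ (Chrnd) subunits, joined by γ (Chrng) in embryonic and denervated muscle or by ε (Chrne) in the adult form. Musk is the receptor tyrosine kinase that responds to nerve-derived agrin and gathers receptors under the nerve ending. Myomaker (Mymk) and myomerger, also called myomixer (Mymx), are membrane proteins that let myoblasts merge into multinucleate fibres. Myogenic factors such as MyoD and myogenin switch on many of these genes through E-boxes (CANNTG), and an Ets-binding N-box (CCGGAA) is known from subunit genes expressed at the synapse. Methylation of CpGs at a gene start commonly goes with silence, whereas CpGs inside gene bodies are often methylated whether or not the gene is used.

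The sequences are shown because they fix which CpGs could be read at each start. The 5 promoters found in RefSeq, Chrna1, Chrnb1, Chrng, Chrne and Musk, are given 5′ to 3′ on the gene's strand (GRCm38.p6) as windows of 300 bases around the start, with every CpG in capitals. The Chrng window lies downstream of the start of its annotated gene record, from which distances are counted. Chrnd, Mymk and Mymx are named only.
Chrna1, chr2:73580289-73580588, minus strand: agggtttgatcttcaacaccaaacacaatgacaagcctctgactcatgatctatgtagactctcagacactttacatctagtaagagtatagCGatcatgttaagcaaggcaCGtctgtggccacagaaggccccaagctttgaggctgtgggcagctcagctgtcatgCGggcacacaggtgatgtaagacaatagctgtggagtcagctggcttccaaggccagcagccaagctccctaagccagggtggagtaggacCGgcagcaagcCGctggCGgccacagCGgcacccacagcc
Chrnb1, chr11:69795888-69796187, minus strand: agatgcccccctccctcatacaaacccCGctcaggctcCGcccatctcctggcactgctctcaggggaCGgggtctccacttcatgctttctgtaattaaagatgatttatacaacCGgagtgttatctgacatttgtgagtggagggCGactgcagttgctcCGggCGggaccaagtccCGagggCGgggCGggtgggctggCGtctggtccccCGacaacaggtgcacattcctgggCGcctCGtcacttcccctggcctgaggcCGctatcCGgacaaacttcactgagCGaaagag
Chrng, chr1:87205561-87205860, plus strand: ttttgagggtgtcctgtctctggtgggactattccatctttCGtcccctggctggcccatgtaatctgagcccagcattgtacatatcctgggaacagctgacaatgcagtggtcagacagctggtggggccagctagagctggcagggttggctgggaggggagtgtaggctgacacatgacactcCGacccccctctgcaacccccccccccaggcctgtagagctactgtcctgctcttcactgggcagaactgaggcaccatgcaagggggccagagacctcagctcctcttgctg
Chrne, chr11:70619145-70619444, minus strand: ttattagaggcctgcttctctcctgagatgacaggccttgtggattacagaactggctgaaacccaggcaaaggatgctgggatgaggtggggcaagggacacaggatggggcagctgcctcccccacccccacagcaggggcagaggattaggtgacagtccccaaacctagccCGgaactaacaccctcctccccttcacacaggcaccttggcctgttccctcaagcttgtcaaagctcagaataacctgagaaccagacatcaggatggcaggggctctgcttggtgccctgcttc
Musk, chr4:58285712-58286011, plus strand: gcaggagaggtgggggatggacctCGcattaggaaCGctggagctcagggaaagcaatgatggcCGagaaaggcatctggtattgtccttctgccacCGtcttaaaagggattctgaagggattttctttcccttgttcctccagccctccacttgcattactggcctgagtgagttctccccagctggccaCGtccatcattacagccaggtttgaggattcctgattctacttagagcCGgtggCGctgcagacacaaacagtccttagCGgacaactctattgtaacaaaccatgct

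These 300-base promoters held 7 CpGs in Chrna1, 17 in Chrnb1, 2 in Chrng, 1 in Chrne and 8 in Musk, against a median of 7 over the 32851 RefSeq mouse promoters of that length. In all, 23.3% of those promoters had at most 2. Of these CpGs, 3 were measured in Chrna1, 9 in Chrnb1 and 2 in Musk, and 0 in Chrng and Chrne. E-boxes, searched as CANNTG (the same on both strands), numbered 3 in Chrna1, Chrnb1, Chrng and Musk and 1 in Chrne. At least 1 is present in 72.3% of all promoters. CCGGAA, searched on both strands, occurred in Chrne alone among the 5, and in 14.9% of all promoters. The 1 CpG of the Chrne promoter lies in this N-box, which is also an MspI site. It was therefore left out, and had no read in siCon and 1 read in siH19.

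In the wider window of 1 kb on each side, 7 of the 8 genes were poorer in CpGs than the median protein-coding gene, which had 61. Chrnb1 had 73, with an observed to expected CpG ratio of 0.529. The other 7 had between 19 (Mymk) and 40 (Mymx) CpGs, with ratios of 0.137 to 0.296.

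Chrnb1 and Chrna1 were unmethylated at their starts in both libraries, and their bodies were methylated further in. At Chrnb1, 60 cytosines from 76 bp before to 720 bp after the start averaged 0.238% in siCon and 0.561% in siH19. This rested on 7 methylated of 2162 reads and 13 of 1639 reads. Not 1 of the 60 exceeded 3.28% in siCon or 5.26% in siH19. The stratified exact test, which compares the libraries cytosine by cytosine and pools the odds ratio, gave p = 0.120 and an adjusted p of 0.403. The 6 cytosines of Chrnb1 between 1744 and 10293 bp averaged 78.1% in siCon and 76.5% in siH19, so the unmethylated stretch ended between 720 and 1744 bp. The window of Chrnb1 also overlaps the 3′ end of its neighbour Fgf11, but no measured cytosine was shared with the Fgf11 gene record.

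At Chrna1, the 3 measured promoter CpGs lie 21 to 37 bp after the start, in the 5′ UTR. They gave 0 methylated calls of 48 in siCon and 0 of 168 in siH19, with upper Wilson limits of 7.41% and 2.24%. Since the 3 CpGs share a 51-bp fragment, the deepest cytosine on each strand adds up to 16 and 56 reads only. A count of 0 among those reads allows a level of up to 18.8% and 5.36%. The other 22 Chrna1 cytosines, from 2971 to 13637 bp, averaged 87.7% in siCon and 85.3% in siH19. The lowest of these fragments, in a coding exon about 7 kb in, averaged 57.6% in siCon and 54.7% in siH19. The next lowest CpG in siCon, in an intron at the far end, stood at 75.4% of 57 reads and 75.2% of 105 reads, while the coding CpGs beside it were between 96.4% and 100%.

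Musk was low but not empty of methylation at its start. Its 2 measured CpGs, at -2 and +23 bp, gave 15.7% of 70 reads and 14.1% of 142 reads in siCon, and 8.57% of 105 and 17.8% of 214 in siH19. The 4 cytosines averaged 14.8% and 12.9%. The summed reads gave 14.6% (10.5 to 20) in siCon and 14.7% (11.3 to 19.0) in siH19. These 4 cytosines were fewer than the 5 needed for a regional test. The body beyond the window, 21 cytosines from 4992 to 87998 bp, averaged 80.3% in siCon and 78.4% in siH19. Musk had 11 covered fragments, the most of the 8 genes, but these reached only 16 of the 730 CpGs in its sequence. Its 14 intronic cytosines averaged 81.0% in siCon and 77.1% in siH19, and 1 at 45358 bp stood at 42.9% of 7 reads in each library.

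**Figure D1:**
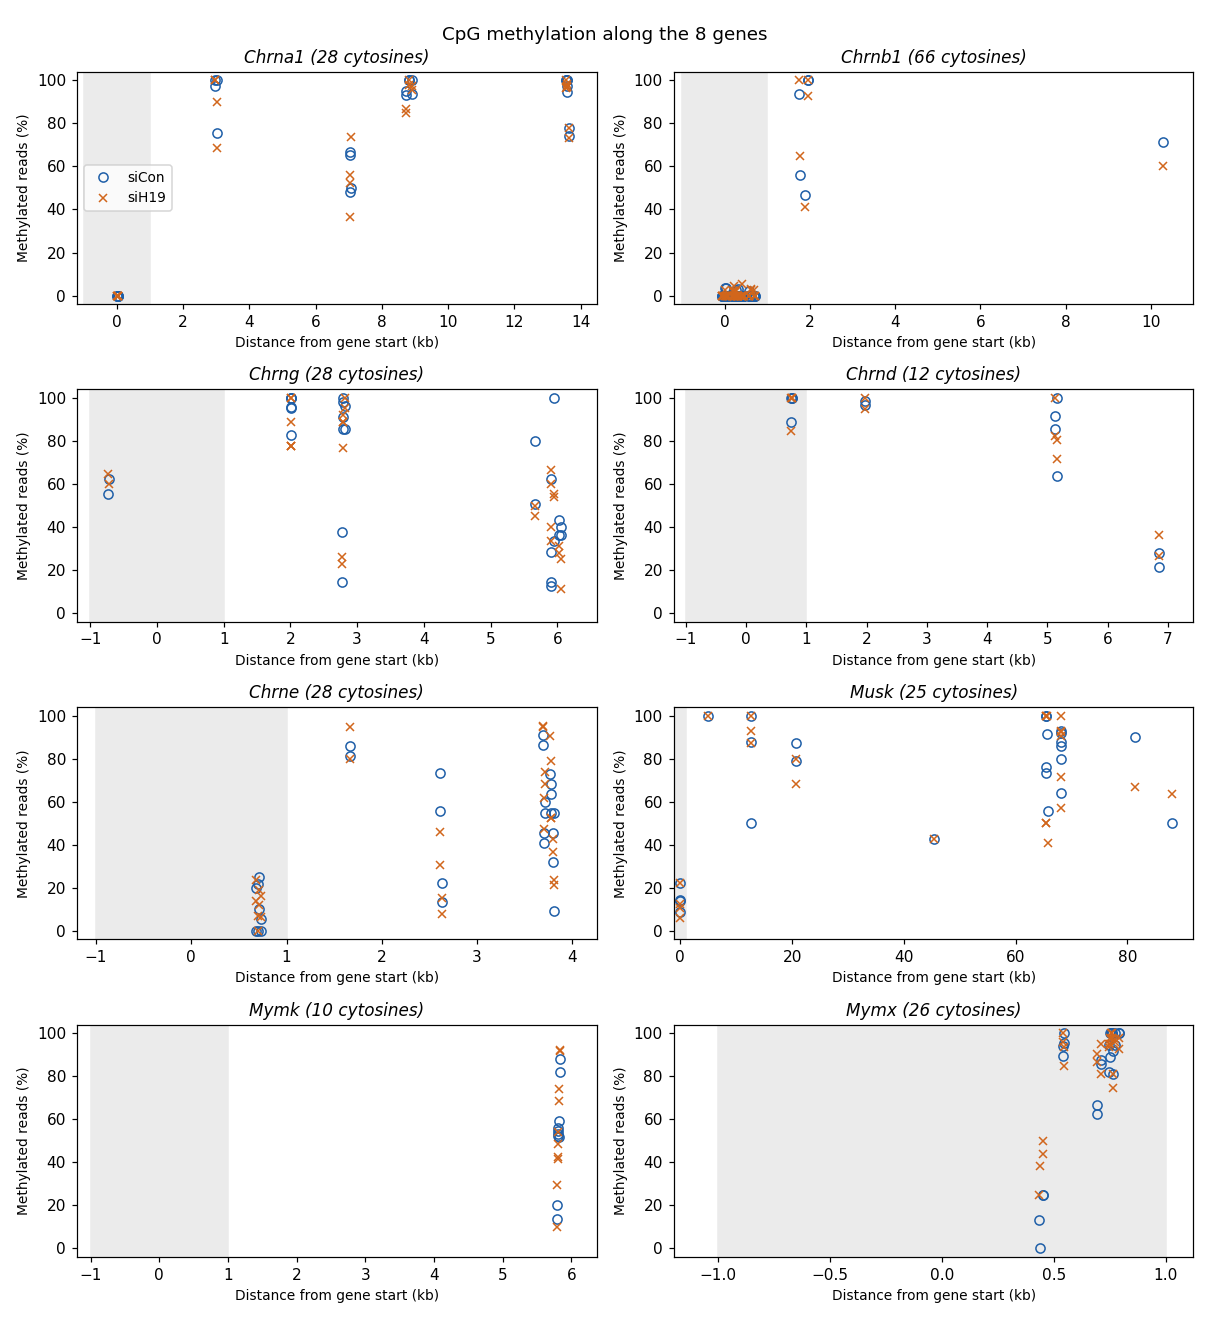
Methylated reads (%) at each of the 223 cytosines against distance from the gene start (kb) for each gene, siCon as open circles and siH19 as crosses, with the window of 1 kb on each side shaded. Chrna1, Chrnb1 and Musk were low at the start and high further in, Chrne was low at 681 to 733 bp, and Mymx was low at 436 to 451 bp and high beyond.

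The genes of the subunits that replace each other, γ and ε, held partly methylated stretches in both libraries. Chrng had a single measured CpG upstream of its gene record, at -727 bp, with 57.7% of 26 reads methylated in siCon and 63.6% of 22 in siH19. Its first coding fragment, at 2001 to 2015 bp, averaged 95.6% in siCon and 87.0% in siH19. At 2772 bp, 35.4% of 65 reads were methylated in siCon and 25.4% of 59 in siH19, and only 9 bp further, at 2781 bp, the levels were 96.9% and 86.2%. This low CpG beside high ones was thus present in each library. Towards the 3′ end, the 12 cytosines from 5668 to 6048 bp were intermediate, and the 4 fragments averaged 29.5% to 66.7% in siCon and 23.8% to 54.7% in siH19.

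Whole-body methylation of Chrng was 66.2% in siCon and 62.0% in siH19 as a mean over 26 cytosines. It was the 1 body of the 8 with an unadjusted p under 0.05 (stratified exact test, p = 0.0104, adjusted p = 0.141), a share of 12.5% where 15.9% of all bodies tested had such a p. Summed over reads, the levels were 70.3% (66.5 to 73.7) of 622 reads and 59.6% (55.5 to 63.5) of 586. This difference of -10.7 points passed Fisher's exact test on summed reads (adjusted p = 0.000547), by which 1 of the 8 bodies (12.5%) and 8.44% of all bodies were called. Over the 10 cytosines with 10 or more reads, the mean difference was -12.2 points (stratified exact p = 0.00544, adjusted p = 0.0931). Reads were spread unequally over the cytosines. The intronic CpG at 5668 bp, at 54.8% and 48.8%, gave 73 siCon reads against 172 siH19 reads, and the highly methylated fragment at 2001 bp gave 135 against 53. Of the 5 covered coding fragments 4 had a lower mean in siH19, and the remaining one, at 5897 to 5910 bp, stood at 29.5% in siCon and 50% in siH19 on 62 and 28 reads.

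Chrne, the adult subunit gene, was low at its first measured CpGs and mixed further in. No CpG nearer the start than 681 bp was measured. The 4 CpGs at 681 to 733 bp, across an exon and an intron, averaged 10.3% in siCon and 12.2% in siH19 over 8 cytosines (stratified exact p = 0.880, adjusted p = 1). Those 4 CpGs differed among themselves by library. With strands summed they stood, in order of distance, at 4.26%, 17.4%, 21.7% and 4.26% in siCon and at 16.7%, 5.08%, 13.8% and 13.6% in siH19. No CpG was therefore highest in both. The next covered CpG, at 1670 bp, stood at 82.6% and 90.4%. In the coding fragment at 3687 to 3804 bp, 7 CpGs ranged from 36.4% to 87.9% in siCon and from 22.5% to 95% in siH19. In both libraries the highest was the CpG at 3687 bp. An intronic fragment at 2613 to 2634 bp averaged 41.1% in siCon and 25% in siH19. Its 4 cytosines lie also in 4930544D05Rik, a gene on the opposite strand, so they cannot be assigned to Chrne alone.

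Chrnd, which encodes the δ subunit shared by both receptor forms, was high where it was measured except at its far end. The 2 CpGs at 750 and 756 bp stood at 91.7% and 100% of 24 reads each in siCon, and at 93.2% and 100% in siH19. At 1967 bp the level was 98.2% of 109 reads and 96.3% of 54. At 6847 bp, in a coding exon, it was 25% (15.8 to 37.2) of 60 reads in siCon and 33.3% (21.7 to 47.5) of 48 in siH19. The drop along the gene was larger than the counting intervals in each library, and the 2 libraries' intervals at 6847 bp overlapped. No CpG of the Chrnd start itself passed the read minimum.

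The 2 fusion genes are short or sparsely covered, and their sequences are given for the CpGs that carried the values. The Mymk stretch is the covered coding fragment and the Mymx stretch the first 30 coding bases, which hold the cytosine with the lowest p-value of the 223. CpGs are in capitals, read from GRCm38 on the gene's strand.
Mymk, chr2:27066332-27066411, minus strand: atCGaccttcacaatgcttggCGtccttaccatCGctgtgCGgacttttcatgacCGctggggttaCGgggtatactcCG
Mymx, chr17:45601642-45601671, minus strand: atgccCGttccattgctccCGatggtgctt

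Mymk was covered in this 1 fragment of 76 bp, and no cytosine within 1 kb of its start reached 5 reads in both libraries. Its 5 measured CpGs, between 5789 and 5835 bp, formed a steep gradient within 46 bp. Along the printed sequence, from the end nearer the start, the strand-summed levels in siCon were 17% of 47 reads, 52.7% of 91, 55.3% of 94, 55.3% of 47 and 85.1% of 47. In siH19 they were 19.8% of 101 reads, 45.5% of 200, 47.8% of 201, 71.3% of 101 and 92.1% of 101. The outer CpGs were the lowest and the highest in each library, with intervals of 8.89% to 30.1% and 72.3% to 92.6% in siCon that did not overlap. The mean over 10 cytosines was 53.1% in siCon and 55.2% in siH19, with 5 cytosines higher and 5 lower (stratified exact p = 0.827, adjusted p = 0.988). The first and last bases of the printed stretch hold CpGs of restriction sites and were left out.

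Mymx was methylated over most of its measured length and dropped at the start of its coding sequence. Its 13 CpGs all lie between 436 and 793 bp from the gene start. The 9 CpGs of the 3′ UTR averaged 90.8% in siCon and 92.8% in siH19, and the coding CpGs at 542 and 545 bp averaged 94.8% and 93.7%. The 2 CpGs in the first 30 coding bases, about 100 bp nearer the start, averaged 15.8% in siCon and 39.3% in siH19. All 4 of their cytosines were higher in siH19. These lie on 1 fragment of 60 bp and share reads, so they are not 4 separate observations.

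With strands summed, the CpG at 436 bp, the nearer to the start codon, stood at 7.69% (2.65 to 20.3) of 39 reads in siCon and at 30.1% (22.1 to 39.5) of 103 in siH19. Those 2 intervals did not overlap. Nor did those of the Chrng CpG at 2008 bp, which was lower in siH19 (92.1 to 100 in siCon, 54.8 to 91.0 in siH19). The share of all CpGs with intervals apart was not counted, so no result about these genes is drawn from these gaps. The Mymx CpG at 450 bp stood at 25% (11.2 to 46.9) of 20 reads and 46.2% (33.3 to 59.5) of 52, and these intervals overlapped. Whether the deeper reads at 436 bp come from separate molecules was not tested. On the genome's plus strand, the cytosine at 437 bp had 0 methylated of 16 reads in siCon, which allows up to 18.8%, and 15 of 39 in siH19 (38.5%, 24.9 to 54.1). Fisher's exact test gave p = 0.00253, and the adjusted p over all cytosines was 0.965. Its partner on the minus strand stood at 13% of 23 reads and 25% of 64 (Fisher's exact p = 0.378). This was the 1 cytosine of 223 (0.448%) with p under 0.05 and a difference of at least 33 points, where 0.987% of all cytosines met both limits and 0.52% did so with the higher level in siH19. With both strands summed, no CpG of the 8 genes met both. A share under that of all cytosines is not a result about these genes.

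The whole Mymx window averaged 79.9% in siCon and 84.7% in siH19 over 26 cytosines, the largest promoter difference of the 8 genes at 4.80 points (stratified exact p = 0.0789, adjusted p = 0.321). Read-weighted levels were 84.6% (81.4 to 87.3) and 85.9% (83.9 to 87.7). With the restriction-site cytosines kept, the mean difference over 38 cytosines was 4.76 points and passed the adjusted test (stratified exact test, adjusted p = 0.0255), below the 10 points needed for a call. End repair fills in these sites, and the share of all promoters that passed at this setting was not counted. A window of 500 bp holds only the 4 cytosines nearest the start codon, at 23.5 points, too few for a test. Depth was unequal, with 572 siCon and 1257 siH19 reads, and the 3′ UTR fragment of 69 bp alone gave 283 and 864 of them.

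**Figure D2:**
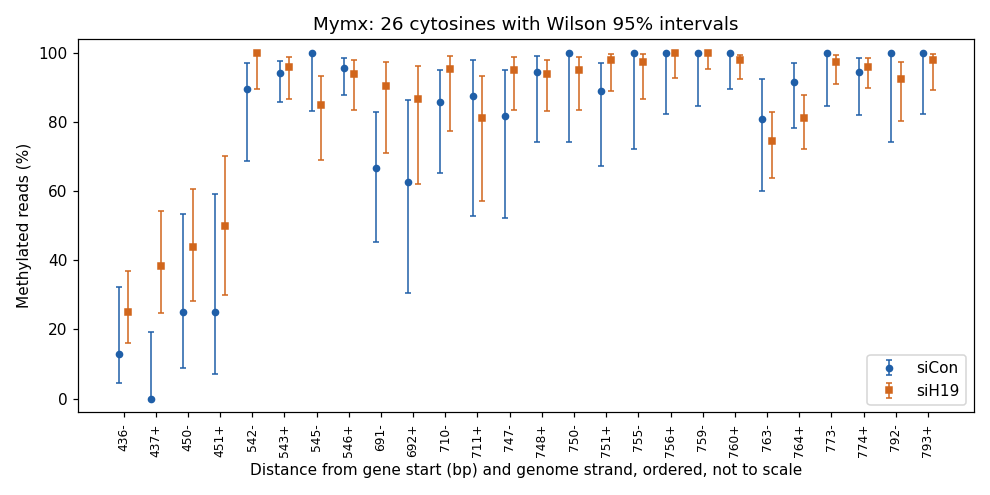
Methylated reads (%) with Wilson 95% intervals at the 26 Mymx cytosines, ordered by distance from the gene start (bp) with the genome strand, siCon as circles and siH19 as squares. The 4 cytosines at 436 to 451 bp lay between 0% and 25% in siCon and between 25% and 50% in siH19, and all others were at 62.5% or more in each library.

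Averaged over the 8 genes, the libraries gave nearly the same level. The mean of all 223 cytosines was 48.3% in siCon and 48.2% in siH19. In siH19, 77 cytosines were higher, 80 lower and 66 equal. The median absolute difference was 3.23 points, against 3.33 over all cytosines of the genome. Chrnb1 gave 66 of the 223, of which 45 were equal in both libraries, and its own median was 0. The medians of the others were 2.39 points in Chrna1, 3.60 in Chrnd, 7.05 in Mymx and 7.14 in Musk. They were 10.2 in Mymk, 10.4 in Chrng and 11.5 in Chrne. Such medians were not taken for single genes outside the 8. A gap of 20 points or more was seen in 22 of 223 (9.87%), against 9.11% of all. Over the 173 member cytosines read 10 or more times in both libraries, Pearson's r was 0.973 and Spearman's rho 0.950, and over all 1442265 such cytosines 0.968 and 0.906. These are descriptions across cytosines, many of which share fragments and reads.

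By Fisher's exact test, 4 of the 223 cytosines (1.79%) had an unadjusted p under 0.05, where 2.53% of all cytosines had, and 0 had an adjusted p under 0.05, where 0.00648% of all had. Beside the Mymx cytosine, the 3 others are named because they are so few, and were picked after their values were seen. A Musk coding cytosine at 68128 bp stood at 85.7% of 28 reads in siCon and 100% of 56 in siH19 (exact p = 0.0106). Its partner on the other strand was at 92.0% and 92.4%. A Chrne intron cytosine at 682 bp had 0 methylated of 37 reads in siCon and 14.0% of 43 in siH19 (exact p = 0.0280), and its partner stood at 20% of 10 and 23.5% of 17. A Chrng coding cytosine at 6047 bp was at 40.0% of 30 reads and 11.1% of 18 (exact p = 0.0493), and its partner at 36.4% of 11 and 25% of 16. In each of the 3 pairs both cytosines moved in the same direction, but the partner's own p was above 0.05.

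**Figure D3:**
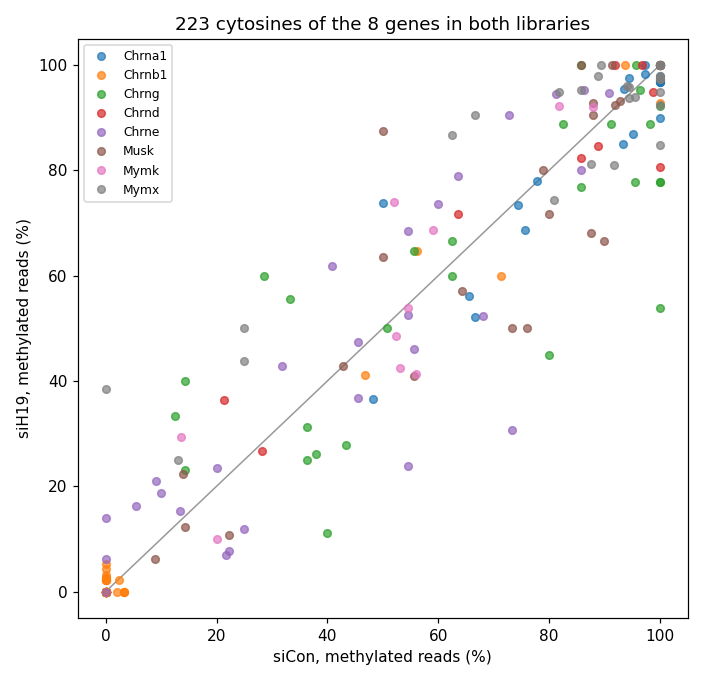
Level in siH19 against level in siCon (methylated reads, %) for the 223 cytosines, coloured by gene, with the line of equal levels. Chrnb1 gathers at 0%, much of Chrna1, Chrnd and Mymx lies near 100%, and 77 cytosines are above the line and 80 below it.

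Strands of 1 CpG were compared within each library. This covers noise inside a library and not the spread between cultures. Both strands were measured at 102 of the 121 CpGs. Within siCon the median absolute difference between strands was 3.53 points and within siH19 3.35. Between libraries the 204 cytosines of the same CpGs had a median absolute difference of 3.23 points. These medians include the largely unmethylated Chrnb1 CpGs. Strands differed with an exact p under 0.05 at 3 CpGs (2.94%) in siCon and 2 (1.96%) in siH19, where 3.51% and 3.28% of all CpGs did. With strands summed, 81 of the 102 CpGs (79.4%) lay within 10 points of each other in the 2 libraries, and 8 (7.84%) differed by more than 20. Over all 755414 CpGs of the genome with both strands used, 87.3% lay within 10 points and 2.52% differed by more than 20, and these shares were not matched for level or depth. Of the 8, 3 were in Mymx and all 3 were higher in siH19. Another 3 were in Chrng, 1 higher and 2 lower, and 1 each in Chrne and Musk, both lower.

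At the level of whole regions no promoter or body of the 8 genes was called, that is, had an adjusted p under 0.05 with a mean difference of at least 10 points. The promoter windows of Chrna1, Chrnb1, Chrne and Mymx had the 5 cytosines needed for the test. Of these 4, 0 were called, where 0.632% of all 19476 promoters were. Chrng, Chrnd and Musk had too few cytosines and Mymk had none. All 8 bodies were tested and 0 were called, where 0.357% of 23274 bodies were. Without the limit on size, 6.82% of promoters and 3.48% of bodies had an adjusted p under 0.05, and again 0 of the members. By the unadjusted exact p under 0.05, 0 of the 4 promoters passed where 19.7% of all did, and 1 of the 8 bodies, Chrng, as given above.

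In siCon, body means ran from 7.99% in Chrnb1 through 42.6% in Chrne, 53.1% in Mymk, 66.2% in Chrng, 68.9% in Chrna1, 74.5% in Musk and 79.9% in Mymx to 81.3% in Chrnd. The median over all bodies was 31.9%. In siH19 the values were 8.21%, 43.3%, 55.2%, 62.0%, 67.1%, 73.1%, 84.7% and 81.4%, so that only Mymx and Chrnd exchanged places. Against all bodies in siCon, Chrnd stood above 94.8%, Mymx above 94.1%, Musk above 91.7% and Chrnb1 above 15.3%. Among promoters, where the median was 4.60% in siCon, Mymx stood above 93.8% of those tested and Chrne above 59.5%. The Chrnb1 body mean was taken over 60 cytosines, of which 54 lie inside the first 1 kb.

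**Figure D4:**
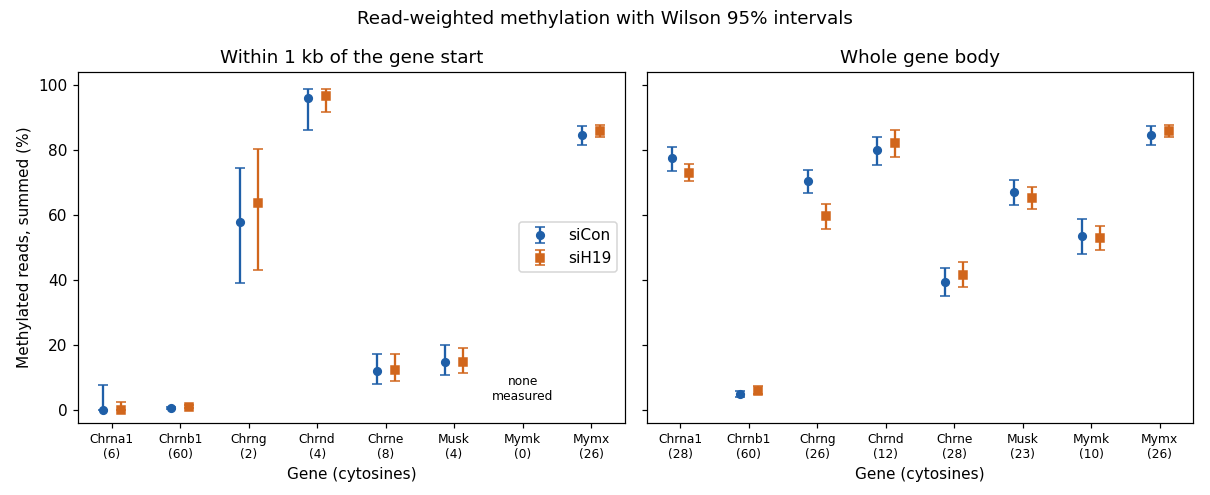
Methylated reads summed per region (%) with Wilson 95% intervals for the window of 1 kb around each start and for the whole body, siCon as circles and siH19 as squares, with the number of cytosines under each gene. The intervals of the 2 libraries overlapped except in the Chrng body, at 70.3% and 59.6%, where 31.7% of all bodies and 15.8% of all promoters tested had intervals apart.

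Other genes of the same pathways were measured in the same way. The neuromuscular synapse list held 15 genes that signal to, anchor or flank the receptor, of which 13 promoters could be tested. The unadjusted exact p was under 0.05 in 3 (23.1%, against 19.7% of all promoters). At an adjusted p under 0.05, 1 rose and 0 fell (7.69%, against 6.82%), shares near those of all promoters, and 0 were called by size. The 1 that passed was Erbb2, a neuregulin receptor, from 0.194% to 1.31% (stratified exact test, adjusted p = 0.00635). The largest differences were 1.91 points in Ache, acetylcholinesterase (6.33% and 8.24%, but -2.35 points when weighted by reads), and 1.31 in the adaptor Crkl (2.45% and 3.76%). The lowest were -0.822 in Erbb3 and -0.808 in Agrn, the agrin gene (2.20% and 1.39%), and none of these 4 passed the adjusted test. The list's median difference was 0.174 points, and that of all promoters 0.0889. Among its 15 bodies 1 had an unadjusted exact p under 0.05 (6.67%, against 15.9% of all bodies). The same body, Crkl, rose at an adjusted p under 0.05 (against 3.48% of all), from 7.75% to 10.7% (stratified exact test, adjusted p = 0.00638), and the median was 0.0612 points. The extremes of the others were Lrp4, the agrin receptor, at 0.882, and Rapsn and Colq at -4.71 and -2.36, none of which passed.

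The fusion list held 17 genes of adhesion, engulfment signalling and membrane repair linked to myoblast fusion. Of its 14 tested promoters, 4 had an unadjusted exact p under 0.05 (28.6%, against 19.7% of all). At an adjusted p under 0.05, 1 rose and 1 fell (14.3%, against 6.82% of all), and 0 were called by size. Cdh2, N-cadherin, rose from 0.387% to 2.13% (stratified exact test, adjusted p = 0.000936), and Il4ra, the receptor for interleukin 4, fell from 4.49% to 2.99% (adjusted p = 0.0185). The next largest difference was 1.61 points in Jam2, and the lowest were -2.86 in Adgrb3 and -1.50 in Nfatc2, which did not pass. The median was -0.817 points. Of its 17 bodies, 4 had an unadjusted exact p under 0.05 (23.5%, against 15.9% of all). At an adjusted p under 0.05, 1 rose (5.88%, against 3.48% of all), Cdh2, from 13% to 14.3% (stratified exact test, adjusted p = 0.0495). Weighted by reads, this difference was 0.133 points. A body includes the part of the promoter window after the start, so the Cdh2 promoter and body may not be separate results. The other extremes, Cav3 at 4.08 (-1.62 when weighted by reads), Dysf at 1.59, Jam3 at -1.61 and Ehd2 at -1.48, did not pass, and the median was 0.328, against 0.143 over all bodies.

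The other 11 nicotinic receptor subunit genes, used mainly in neurons and sensory cells, had 6 tested promoters and 11 tested bodies, with 0 at an adjusted p under 0.05 and an unadjusted exact p under 0.05 in 2 of each (33.3% of promoters and 18.2% of bodies, against 19.7% and 15.9% of all). Promoter differences ran from -3.93 points in Chrna10 and -1.61 in Chrna3 to 3.36 in Chrnb2 and 4.42 in Chrna7. Body differences ran from -5.92 in Chrnb3 (8.15 when weighted by reads) and -2.67 in Chrna3 to 2.28 in Chrna5 and 4.02 in Chrnb2. Their tested promoters had a median level of 34.0% in siCon, while that of the synapse list was 2.30%.

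**Figure D5:**
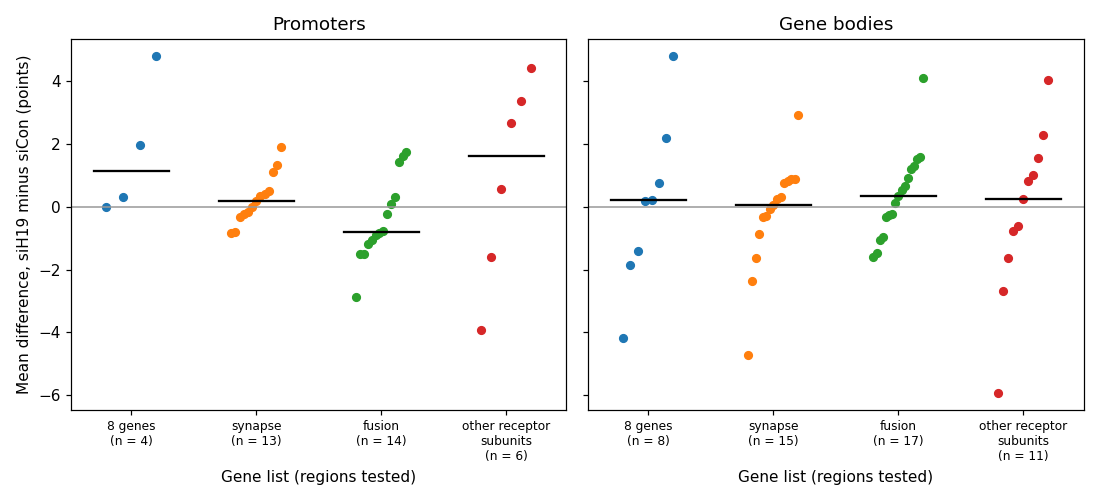
Mean methylation difference per gene, siH19 minus siCon in percentage points, for tested promoters and bodies of the 8 genes and of the 3 other lists, 1 point per gene with the median as a bar. All points lie between -5.92 and 4.80, within the limit of 10 points used for a call.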

How the data were processed

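DNA methylation was compared between 1 siCon and 1 siH19 library of C3H myotubes, grouped by their labels. The paper's methods name Bismark, run by the authors in non-directional mode, with filled-in bases trimmed before methylation calling. The submitters' processing notes name bcl2fastq 1.8.4 and mm10. Removal of duplicate reads, and whether overlapping reads of a fragment were counted once, are not given in the sources used here. The deposited files give 1 entry per CpG cytosine and strand, holding text of another unit, the methylated and total read counts, made by the authors without normalization between libraries. The authors' deposited score, a rescaled methylated share, was used to check parsing and matched the counts in 100% of entries. All 6041258 positions on assembled chromosomes fell on CpGs of GRCm38.

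Of 3413804 cytosines with at least 5 reads in both libraries, those inside CCGG or TCGA were left out, because end repair fills in these sites. Genes came from the GENCODE annotation of GRCm38, and a promoter was the window of 1000 bp on each side of the start of the gene record. Coordinates count from 1. A region's level was the mean over its cytosines. Cytosines were tested by two-sided Fisher's exact tests, and regions with at least 5 cytosines by a two-sided exact test stratified by cytosine, with Benjamini-Hochberg adjustment over all cytosines, promoters or bodies. Cytosines of a fragment share reads, so regional p-values are too small. Python 3.11.15, numpy 2.4.6, scipy 1.17.1, pandas 2.3.3 and numba 0.67.0 were used, and the tests were tried on simulated data.

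The 8 genes were all named. Single cytosines were named at p under 0.05 with at least 33 points of difference, overlapping genes as neighbours, and genes of the 3 other lists where they passed or had the 2 highest or 2 lowest differences. Members and lists were chosen with earlier results of these data known. Alternatives were a minimum of 10 reads, restriction sites kept, strands summed, read-weighted levels, repeats left out, a window of 500 bp, transcript starts, bodies without promoters, no minimum of cytosines and a limit of 25 points.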

Additional observations from a re-analysis of the deposited data

How the results depend on the processing

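No paired analysis was possible because there was 1 library per group, and for the same reason no replicate could be left out. Among the 5 counts of calls, 17 alternative values were within 1.5 times the main count and 5 were not. Single cytosines with p under 0.05 and at least 33 points numbered 5 of 384 with restriction-site cytosines kept, against 1 of 223. The shares of all cytosines were 1.42% and 0.987%. The count was 0 with strands summed, where 0.757% of all CpGs met both limits. It was 2 with a limit of 25 points, where 1.52% of all cytosines passed. Gene bodies called numbered 1 with read-weighted levels, Chrng at -10.7 points (Fisher's exact test on summed reads, adjusted p = 0.000547), where 8.44% of all bodies were called. CpGs whose strands differed in siH19 numbered 1 of 67 at 10 reads, where 3.25% of all CpGs did. Promoters called numbered 0 under every alternative run, where 0.338% to 2.52% of all promoters were called. Of the single-gene differences, 101 values counted as unchanged. For regions tested in the main setting, this meant no turn of sign and no call. An unchanged value could still pass 10 points, as did the untested Mymx promoter at 23.5 in the 500-bp window. For the Chrng, Chrnd and Musk promoters, with too few cytosines for a main test, it meant a value within counting error of the main one. In 7 of the 101 values, 1 of these 3 promoters changed sign. Tested regions that turned sign were the Musk body, 0.229 at 10 reads and 2.20 with sites kept, the Chrnb1 promoter, -0.0566 with sites kept, the Chrnb1 body, -0.382 with strands summed and -1.59 without the promoter window, and the Mymk body, -0.533 read-weighted. None of these passed a test in either direction, and the cause was not tested. The Mymx window and body passed the adjusted test with sites kept (adjusted p = 0.0255 and 0.0293 by the stratified exact test). They hold the same 38 cytosines and are 1 result. The share of all regions that passed at this setting was not counted. The Chrng body stood at -12.2 points at 10 reads. With transcript starts in place of gene records, the Chrng promoter held 6 cytosines and a difference of -8.58 points (stratified exact p = 0.0504, adjusted p = 0.254). Of the 22 cytosines that differed by 20 points or more, 2 had an exact p under 0.05. The matching share of all cytosines was not counted, and a part played by depth was not tested.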

Other observations

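Left-out restriction-site cytosines of the same genes gave levels that differed between strands. At the TCGA site 62 bp after the Chrna1 start, the plus strand had 0 methylated of 5 reads in siCon and 0 of 15 in siH19, and the minus strand 3 of 3 and 13 of 13. At the CCGG site 8 bp before the Musk start, the plus strand stood at 2.86% of 35 reads in siCon and the minus strand at 97.1% of 35. Such cytosines enter the comparisons above only where restriction sites are said to be kept.

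Depth within a fragment was uneven. In the Mymk fragment, the 2 middle CpGs had 94 and 91 reads in siCon and 201 and 200 in siH19, and the 3 others 47 and 101 reads each. The Musk CpG at +23 bp had 142 reads in siCon where its neighbour at -2 bp had 70. The Musk CpG at 68127 bp had 78 reads in siCon and 161 in siH19, and its neighbour at 68095 bp 39 and 82. The Mymx CpG at 436 bp had 39 reads in siCon and 103 in siH19, and its neighbour at 450 bp 20 and 52. Whether such reads come from separate molecules was not tested. If they do not, intervals at the deeper CpGs would be wider and p-values there larger.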
